A study of Homo sapiens with 12 samples.

Results

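The comparison set NT2/D1 cells exposed to 10 nM 5-aza deoxycytidine (5-aza) for 3 days against the same cells exposed to the same dose for 1 day, with the drug renewed daily in both groups. NT2/D1 is an embryonal carcinoma line, the malignant counterpart of pluripotent embryonic cells, derived from a testicular germ cell tumour. Messenger RNA was measured on 6 of the 12 Illumina bead arrays of the study, 3 for 3 days and 3 for 1 day, and the other 6 held untreated cells and cells given cisplatin. Probes entered the comparison when 3 or more of the 6 arrays read them above the negative control beads (detection p under 0.05), which left 16288 of 47231 probes and 10026 of the 20045 genes with a probe. Controls form a single untreated group, so the length of exposure and the time in culture cannot be told apart. The groups are called biological triplicates, but nothing in the labels ties each array to a culture of its own, and p-values may therefore measure technical spread only.

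5-aza is a cytidine analog. Once built into DNA during replication it traps DNA methyltransferases, so that CpG methylation is lost as cells divide, and the trapped enzymes are themselves a DNA lesion that can activate p53. Embryonal carcinoma cells carry unusually high DNMT3B and a pluripotency circuit of POU5F1, SOX2 and NANOG that is fed by NODAL and FGF signals and by MYC.

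Values are normalized log2 intensities, so that a difference of 1 is a 2-fold change, and differences are 3 days minus 1 day with the standard error of the limma model. A gene is represented by its brightest kept probe, and of 694 called genes with further kept probes 594 had all of them on the same side of 0 and 14 had a probe called the other way. It was called changed at a Benjamini-Hochberg adjusted p under 0.05 over all kept probes, two-sided, and levels are compared only within a gene. Before normalization the median intensity was 154.3 to 165.5 units at 3 days and 166.2 to 176.9 at 1 day, with 15658 to 16123 and 16031 to 16488 detected probes. Arrays of the same time correlated at 0.9913 or above across probes, and arrays of different times at 0.9759 or below. The arrays were deposited in the order of the groups, and the labels give no chip or position for any array. An effect of chip or position therefore cannot be told apart from group. The embryonal carcinoma label was borne out by its markers: 11 of 12 were detected on all 3 arrays at 3 days and 12 of 12 at 1 day, and their summed intensity was 53600 to 58200 at 3 days and 66500 to 70100 at 1 day. Markers of trophoblast were detected on no time's full set of arrays (0 of 8 at either time).

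Longer exposure came with differences in a large part of the measured transcriptome. Of the 10026 genes 3255 (32.5%) were called changed, 1766 (17.6%) higher and 1489 (14.9%) lower at 3 days. On 4922 genes (49.1%) the 3 arrays of the one time lay wholly above or below those of the other. The median size of a called difference was 0.54, against a median standard deviation of 0.12 among the arrays of either time. Large changes were mostly rises: 251 genes were higher and 101 lower by at least 2-fold, and 26 were higher and 5 lower by at least 4-fold. Split by level into equal sets of 3342 genes, 548 of the bright genes rose and 458 fell, against 730 and 608 of the middle and 488 and 423 of the dim ones. The share of genes called ranged from 27.8% on chromosome 2 to 35.7% on chromosomes 9 and 22. Of the 3652 kept probes without a gene name 718 (19.7%) changed, 283 of them higher and 435 lower, and among all kept probes the share was 29.1%.

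Counts of direction depended on the scaling. Quantile normalization gives all arrays the same distribution of values. An alternative scaled each array to its median over all 47231 probes. Since 15658 to 16488 probes per array were detected, that median lies among undetected probes. Scaling in this way put the median of all genes at -0.20. Then 1002 genes were higher and 3662 lower, in place of 1766 and 1489. Each of the 1489 genes called lower kept that call, 1002 of the 1766 called higher kept theirs, and 42 of these 1766 lay below 0 under that scaling. With all 12 arrays in the fit, 950 genes were called, 630 higher and 320 lower, and 42 of the 47 gene lists described here had fewer calls.

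**Figure D1:**
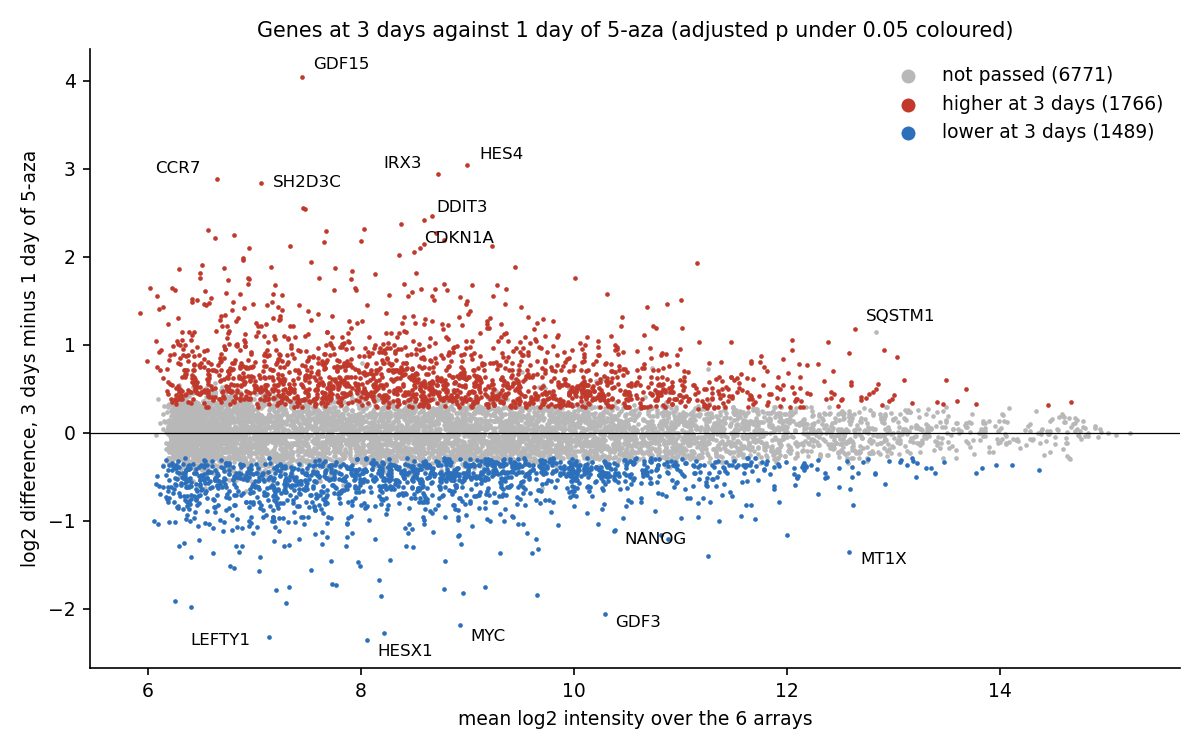
Difference in normalized log2 intensity, 3 days minus 1 day of 5-aza, against the mean level over the 6 arrays for each of the 10026 genes, with called genes coloured by direction and selected genes named. Called genes numbered 1766 above 0 and 1489 below 0, and the largest rise was GDF15 at 4.04.

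GDF15, a secreted stress cytokine and p53 target, showed the largest rise. It read 9.32, 9.53 and 9.55 at 3 days against 5.50, 5.39 and 5.39 at 1 day, where no array detected it. For such genes the fold is a lower bound, the mean of the brighter time over the higher of each dim array's own value and its floor, the dimmest signal among its detected probes after normalization (6.26 to 6.32). GDF15 was therefore at least 9.14-fold higher at 3 days (adjusted p = 1.49e-07, limma).

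HES4, a transcriptional repressor of the HES family that Notch signalling controls, read 10.40, 10.58 and 10.56 at 3 days and 7.50, 7.49 and 7.44 at 1 day, a rise of 3.04 ± 0.10 or 8.2-fold (adjusted p = 6.15e-07, limma). The homeobox factor IRX3 read 10.02, 10.15 and 10.42 at 3 days and 6.91, 7.33 and 7.51 at 1 day (7.7-fold higher, adjusted p = 5.02e-06, limma). In both genes the lowest array at 3 days lay well above the highest at 1 day. S100A4, a calcium sensor linked to cell migration, had values of 9.77, 9.88 and 10.04 at 3 days and 7.57, 7.33 and 7.40 at 1 day (5.53-fold higher), and a further probe of the gene rose by 2.77. DDIT3, which encodes the stress factor CHOP, had values of 9.81, 9.89 and 9.69 at 3 days and 7.39, 7.40 and 7.34 at 1 day (5.35-fold higher, adjusted p = 1.45e-06, limma). OPTN, an autophagy receptor, was 5.16-fold higher, and BGN, a matrix proteoglycan, and PLA2G2A, a secreted phospholipase, were 5.88-fold and 5.81-fold higher although each was detected on only 1 of the 3 arrays at 1 day.

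The 5 largest falls were those of HESX1, LEFTY1, LEFTY2, MYC and GDF3. HESX1, a homeobox factor of early embryonic cells, read 6.85, 6.71 and 7.09 at 3 days and 9.20, 9.26 and 9.24 at 1 day, a difference of -2.35 ± 0.12 or 5.08-fold lower (adjusted p = 3.23e-06, limma). LEFTY2, a secreted NODAL inhibitor, was 4.83-fold lower, with 7.10, 7.0 and 7.16 at 3 days and 9.22, 9.45 and 9.40 at 1 day. Its near-identical neighbour LEFTY1 was not detected at 3 days and was at least 3.98-fold lower, and the probes of the pair may cross-hybridise. MYC, the growth-promoting transcription factor, read 7.69, 7.93 and 7.90 at 3 days and 10.07, 9.91 and 10.07 at 1 day (4.53-fold lower, adjusted p = 3.23e-06, limma), and its further probe differed by -2.59. GDF3, a NODAL-related ligand of stem cells, had 9.27, 9.16 and 9.36 at 3 days and 11.37, 11.30 and 11.30 at 1 day (4.17-fold lower). No array at 3 days reached the lowest array at 1 day in these 5 genes, which were picked for the size of their fall. Over all genes 49.1% had arrays that did not overlap. The others of the 10 largest falls were TMT1A and MT1M, both undetected at 3 days, the metallothionein MT1H (3.81-fold lower, detected on 2 of 3 arrays at 3 days), LANCL2, a LanC-like protein (3.62-fold lower), and FOXO4, a forkhead factor (3.58-fold lower).

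**Figure D2:**
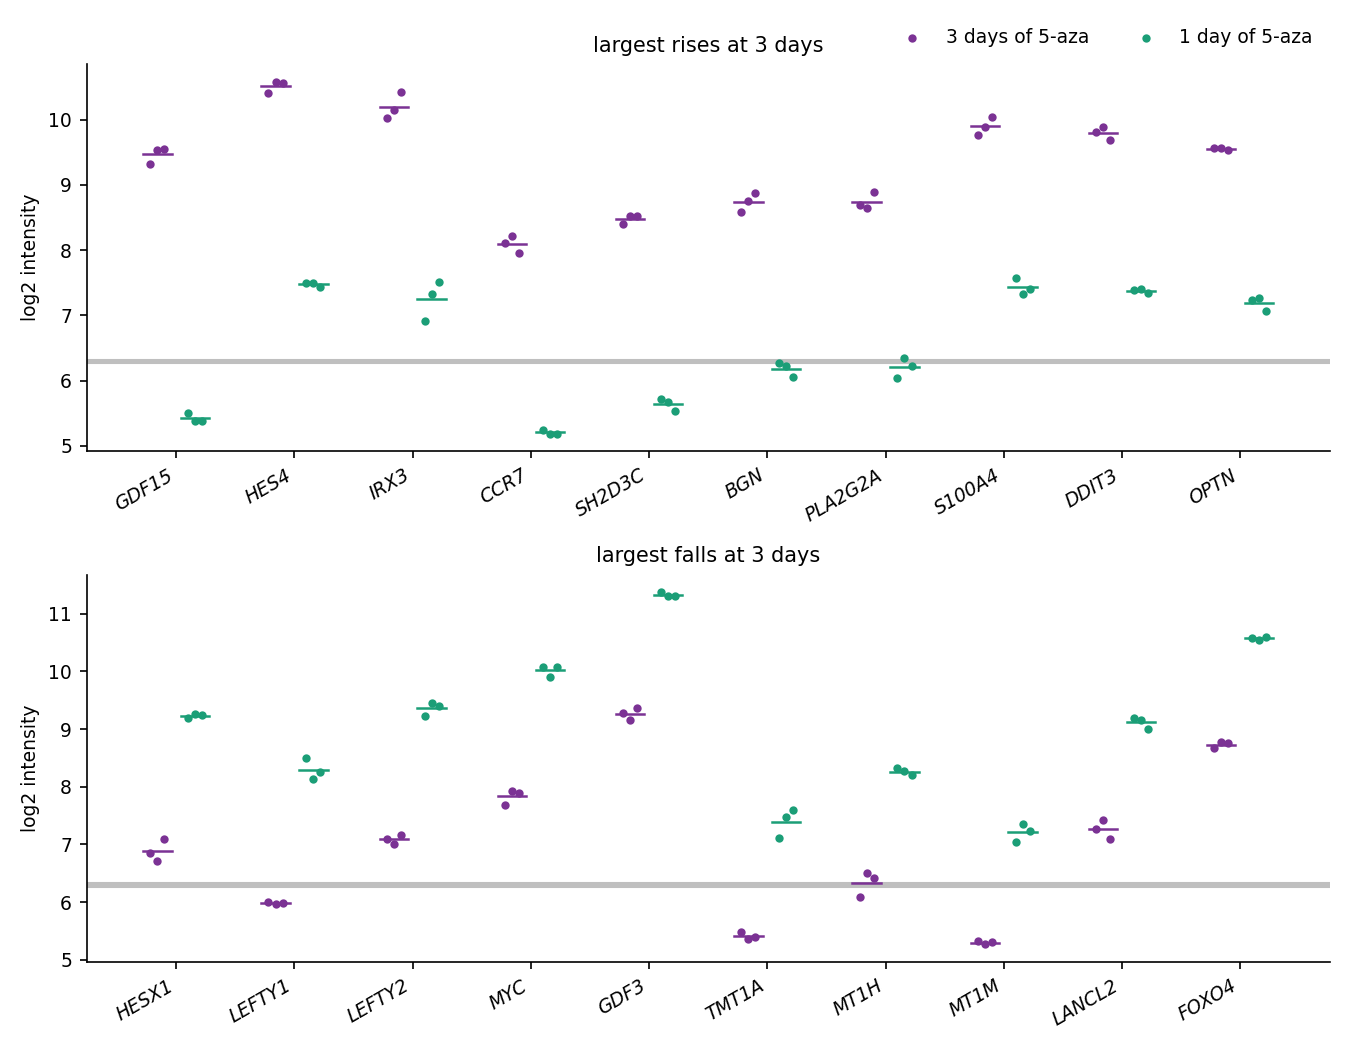
Normalized log2 intensity on each array at 3 days and at 1 day of 5-aza for the 10 largest rises and the 10 largest falls among called genes detected on all 3 arrays of the brighter time, with short lines at the means and a grey band at the floors of the arrays (6.26 to 6.32). The 2 sets of 3 points are separate in every gene shown, and HES4 stands at 10.40 to 10.58 at 3 days and 7.44 to 7.50 at 1 day. The genes were picked by size of change, and the arrays were separate in 49.1% of all genes.

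A set of genes crossed the detection limit. There were 134 genes detected on all 3 arrays at 3 days and on none at 1 day, and 132 with the opposite pattern. The bound reached 2-fold in 29 of the 134 genes that appeared and in 6 of the 132 that disappeared. Besides GDF15, those with the largest bounds were SH2D3C, an adaptor protein (at least 4.62-fold), CCR7, a chemokine receptor of lymphocytes (at least 3.53-fold), SEPTIN4, a septin with a pro-apoptotic isoform (at least 3.53-fold), and STMN2, a neuronal microtubule regulator (at least 3.31-fold). CCR7 read 8.11, 8.21 and 7.96 at 3 days and 5.25, 5.19 and 5.19 at 1 day. Of 7 blood cell markers on the array 1 was detected on all arrays of either time, and their summed intensity was 410 to 448 at 3 days and 411 to 445 at 1 day. Among the genes lost were LEFTY1, the ephrin ligand EFNB1 (at least 2.40-fold lower), RRM2, the ribonucleotide reductase subunit made in S phase (at least 2.34-fold lower), RBM15B, an RNA-binding protein (at least 2.25-fold lower), and TMT1A, a thiol methyltransferase (at least 2.13-fold lower).

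Genes that p53 is known to induce were next examined from a list of 44, of which 29 were measured. At 3 days 14 were higher, 2 lower and 13 did not pass, with a median difference of 0.34 against 0.00 for all genes and 0.10 under median scaling. CDKN1A, the p21 inhibitor of cyclin-dependent kinases, read 9.54, 9.54 and 9.48 at 3 days and 7.82, 7.10 and 7.48 at 1 day, a rise of 2.06 ± 0.16 or 4.16-fold (adjusted p = 3.56e-05, limma). GADD45A, a growth arrest protein, read 10.15, 9.92 and 9.98 at 3 days and 8.38, 8.57 and 8.41 at 1 day (2.96-fold higher). The early response gene IER3 had 9.74, 9.95 and 9.76 at 3 days and 8.59, 8.56 and 8.49 at 1 day (2.42-fold higher), and the TRAIL receptor gene TNFRSF10B was 2.16-fold higher. The groups of arrays were separate in each of these 4 genes, which were picked among called members, and in 49.1% of all genes.

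Members of the same list did not move as a block. TP53I3, an oxidoreductase induced by p53, read 8.39, 8.21 and 8.33 at 3 days and 9.11, 9.22 and 9.05 at 1 day, 1.76-fold lower (adjusted p = 0.000407, limma), and PMAIP1, the BH3-only protein NOXA, differed by -0.64 ± 0.17 (adjusted p = 0.0195, limma). The PMAIP1 call was lost without replicate 1 or 3 at 3 days or replicate 2 or 3 at 1 day (adjusted p 0.0573 to 0.0709) and in the fit of all 12 arrays (0.146). MDM2, the ubiquitin ligase of p53, differed by -0.17 ± 0.10 and did not pass (adjusted p = 0.24, limma). PPM1D, a phosphatase that switches p53 off, read 8.36, 8.33 and 8.42 at 3 days and 8.0, 8.50 and 8.22 at 1 day and did not pass either. Too few arrays detected FAS, BBC3, PLK2 and STK17A for a test. Of 5 measured inhibitors of cyclin-dependent kinases only CDKN1A was called, and the median of the 5 was 0.15, or -0.11 under median scaling.

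The pluripotency list had 34 genes and 25 measured members, of which 14 were lower, 1 higher and 10 did not pass. Its median was -0.40, or -0.69 under median scaling. NANOG, the homeobox factor of the core circuit, read 9.66, 9.96 and 9.81 at 3 days and 10.93, 10.90 and 10.96 at 1 day, 2.17-fold lower (adjusted p = 9.8e-05, limma), and its further probe differed by -1.21. PRDM14, a germline and pluripotency regulator, read 6.84, 6.81 and 6.59 at 3 days and 8.07, 8.47 and 8.38 at 1 day (2.95-fold lower). POU5F1, which encodes OCT4, lay between 10.11 and 10.37 at 3 days and at 10.72 or above at 1 day (1.45-fold lower, adjusted p = 0.00929, limma), and several pseudogenes resemble it in sequence. In a fit of all 12 arrays its adjusted p was 0.148.

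SOX2, the partner of OCT4, read 12.54, 12.35 and 12.80 at 3 days and 12.74, 12.70 and 12.60 at 1 day, so that the groups overlapped, and it did not pass (adjusted p = 0.53, limma). Under median scaling its difference was -0.48 (adjusted p = 0.0153, limma). LIN28A, DPPA4 and the Polycomb subunit PHC1 did not pass, with differences of -0.07, -0.11 and -0.32, but each passed under median scaling, at -0.30, -0.45 and -0.62. PHC1 also passed with the deposited normalized values, an offset of 50, the 2 stricter detection filters and the replicate block, and without replicate 1 at 3 days (adjusted p 0.0269 to 0.0483, limma). The single member that rose was UTF1, a chromatin factor of embryonic stem cells (0.34), which was detected on 1 of the 3 arrays at 1 day. That call was lost when any single array other than replicate 3 at 3 days was left out (adjusted p up to 0.132) and with all 12 arrays (0.725).

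Lists of signals that feed this circuit differed in their counts. In the NODAL list 6 of 12 measured members fell, none rose and 6 did not pass, and those that fell included the inhibitors LEFTY1 and LEFTY2, the ligand GDF3 and the negative regulators SKIL and SMAD7 (median -0.36, or -0.48 under median scaling). The SMAD7 call was lost in the fit of all 12 arrays (adjusted p = 0.129, limma). NODAL itself was not above background on 3 arrays. In the FGF-ERK list 4 of 14 measured members were higher and 3 lower, against 3 higher and 5 lower under median scaling. DUSP6, an ERK phosphatase, read 8.17, 7.86 and 7.63 at 3 days and 9.75, 9.75 and 9.48 at 1 day (3.42-fold lower), while DUSP5, a nuclear ERK phosphatase, was 1.9-fold higher. In the Wnt list 3 of 16 fell (8 under median scaling), none rose and 13 did not pass. Its share called was 18.8%, below the 32.5% of all genes. The largest fall was that of the repressor TCF7L1, which read 7.21, 6.88 and 6.86 at 3 days and 8.52, 8.39 and 8.43 at 1 day (2.76-fold lower).

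The BMP list ran the other way, with 5 of 9 measured members higher and 1 lower, SMAD7, which is also in the NODAL list. ID3, an inhibitor of differentiation and a direct BMP target, read 10.25, 10.05 and 10.34 at 3 days and 8.86, 8.61 and 8.88 at 1 day, a 2.7-fold rise (adjusted p = 4.72e-05, limma). The list's median was 0.29, and -0.03 under median scaling, where 2 were higher and 1 lower. In the Notch list 8 of 13 rose and 3 fell (median 0.46, or 0.24 with 5 higher and 4 lower under median scaling): HES4 rose and so did the ligand DLL3 (2.15-fold), whereas the target gene HEY2 was 2.66-fold lower and was detected on 2 of 3 arrays at 3 days.

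Neural and homeobox genes rose more often than they fell, 9 against 3 of 18 measured, with a median of 0.40 (0.22 under median scaling, with 7 against 5). Besides IRX3, the forebrain homeobox gene LHX2 read 9.97, 9.41 and 10.03 at 3 days and 8.41, 8.60 and 8.69 at 1 day (2.36-fold higher), and CRABP2, a retinoic acid carrier, was 1.88-fold higher. STMN2 read 8.12, 7.76 and 8.12 at 3 days and 5.96, 5.92 and 5.81 at 1 day, and its further probe rose by 0.93. DCX, a microtubule protein of young neurons, fell by 0.82, as did NEUROG1 by 0.46 and SOX11 by 0.45, and the calls of NEUROG1 and SOX11 were lost with all 12 arrays (adjusted p 0.0632 and 0.0625, limma). Of 7 neuron markers on the array 4 were detected on all arrays at 3 days and 3 at 1 day. Their summed intensity was 1470 to 1530 at 3 days and 1280 to 1330 at 1 day, while SNAP25, SYT1 and RBFOX3 were detected on no array. In bulk RNA, fewer cells of a type cannot be told apart from less RNA per cell. Among 9 measured retinoid and HOX genes 1 rose and 3 fell, led by CYP26A1, the retinoic acid hydroxylase, with 8.44, 8.25 and 8.17 at 3 days and 10.00, 10.05 and 10.05 at 1 day (3.36-fold lower).

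Of 16 mesendoderm genes only APOA1, a lipoprotein gene, was measured, and it rose by 0.48 (adjusted p = 0.0199, limma) but did not pass without replicate 2 at 3 days (0.0597) or with all 12 arrays (0.0932). Yolk sac and endoderm markers were detected on no array for 7 of 8 genes. The germline and cancer-testis list, whose promoters are methylated in most cells, had 11 measured members of 55, of which 1 was called (higher, and none under median scaling, where 1 was lower). Among 18 measured imprinted genes 3 rose (16.7%, near the 17.6% of all genes) and none fell, whereas 2 were higher and 6 lower under median scaling. The largest rise was that of DLK1, a paternally expressed Notch-like ligand that read 8.80, 8.63 and 8.88 at 3 days and 7.08, 7.21 and 7.07 at 1 day (3.14-fold higher, adjusted p = 1.21e-05, limma). The imprinted list's median was 0.08, and -0.16 under median scaling.

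The enzymes that write DNA methylation behaved differently from each other. DNMT3B, which the study described as unusually high in embryonal carcinoma cells, read 11.24, 10.93 and 11.14 at 3 days and 12.20, 12.03 and 11.90 at 1 day. It was 1.92-fold lower (adjusted p = 0.000513, limma), and its further probes differed by -0.91 and -0.89. In the fit of all 12 arrays its adjusted p was 0.0526. DNMT1, the maintenance enzyme, lay at 12.92 or above at 3 days and at 12.75, 12.77 and 12.87 at 1 day and did not pass (0.16 ± 0.09, adjusted p = 0.219, limma), and its difference was -0.18 under median scaling. DNMT3A differed by -0.05 ± 0.12 and did not pass. Of 13 measured genes of the methylation machinery 5 fell and none rose, with a median of -0.05 (-0.20 under median scaling). Their share called was 38.5%, against 32.5% of all genes.

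Among genes of nucleotide supply, which govern how cells take up, activate and dilute the drug, 3 of 17 rose and 4 fell, against 2 and 7 under median scaling. The share called was 41.2%, against 32.5% of all genes. CDA, the deaminase that inactivates cytidine analogs, read 7.11, 7.17 and 7.02 at 3 days and 6.33, 6.23 and 6.20 at 1 day (1.8-fold higher, detected on 1 of 3 arrays at 1 day). RRM2 had 6.04, 6.00 and 6.00 at 3 days, all below detection, and 7.69, 7.36 and 7.54 at 1 day. DCK, the kinase that activates 5-aza, differed by 0.14 and did not pass.

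Genes whose promoters the study had named as demethylated numbered 6 in the list, and 3 of them were measured. SOX15, a SOX family factor, differed by -0.02 ± 0.16 and CD164L2 by 0.14 ± 0.10, and neither passed. GPER1, a membrane estrogen receptor, read 7.22, 7.10 and 7.21 at 3 days and 6.94, 6.90 and 6.79 at 1 day (1.23-fold higher, adjusted p = 0.0412, limma). That call was lost without any single array (adjusted p 0.0559 to 0.13) under median scaling (0.169) and with all 12 arrays (0.432), and a second probe differed by -0.16. With all 12 arrays normalized together GPER1 averaged 7.35 at 3 days, 7.04 at 1 day and 5.62 in untreated cells, where no array detected it. In the same order SOX15 averaged 6.61, 6.64 and 6.44, and CD164L2 6.55, 6.39 and 6.20. Both genes were dim. In the main fit CD164L2 averaged 6.44 at 3 days and 6.30 at 1 day, where 1 of 3 arrays detected it. The floors of the arrays lay at 6.26 to 6.32, so a change in so dim a gene could be missed. For RIN1, TLR4 and TRIM54 fewer than 3 arrays rose above background, and no test was made.

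Effectors of ATF4 and CHOP, the transcription factors of the integrated stress response, were mostly higher at 3 days. Of 24 measured members of 27 listed, 18 were higher, 1 lower and 5 did not pass, with a median of 0.72 (0.56 under median scaling). INHBE, an activin subunit, read 8.91, 8.78 and 8.78 at 3 days and 6.50, 6.45 and 6.63 at 1 day (4.9-fold higher, adjusted p = 2.32e-06, limma). TRIB3, a pseudokinase induced by CHOP, had 8.49, 8.80 and 8.78 at 3 days and 7.10, 6.75 and 6.63 at 1 day (3.65-fold higher). CEBPB, a bZIP factor, had 11.35, 11.38 and 11.45 at 3 days and 9.92, 9.96 and 10.02 at 1 day (2.69-fold higher), and ATF3, a stress-inducible bZIP factor, had 9.69, 9.80 and 9.66 at 3 days and 8.57, 8.12 and 8.29 at 1 day (2.62-fold higher). PPP1R15A, the phosphatase subunit GADD34, was 2.37-fold higher. ATF4 itself, whose control is largely translational, did not pass (0.05 ± 0.09, adjusted p = 0.709, limma), and its second probe differed by -0.50. Under median scaling the brightest probe of ATF4 was at -0.31 (adjusted p = 0.0309, limma).

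Related lists were read beside it, without a test of the difference between lists. Of 18 measured aminoacyl-tRNA synthetases 6 rose and 3 fell with a median of 0.17, whereas 2 were higher and 8 lower under median scaling (median -0.17). AARS1, the alanyl-tRNA synthetase, read 13.39, 13.44 and 13.57 at 3 days and 12.58, 12.61 and 12.61 at 1 day (1.82-fold higher). Enzymes of serine, glycine and folate metabolism had 1 rise and 4 falls among 15 (none and 8 under median scaling), led by MTHFD1, a trifunctional folate enzyme (2.05-fold lower). Their share called was 33.3%, near the 32.5% of all genes. Among 19 measured folding factors of the endoplasmic reticulum 2 rose and 2 fell, and under median scaling none was higher and 7 were lower. Calls in the main fit made up 21.1% of these factors, against 32.5% of all genes. The chaperone HSPA5 differed by -0.20 and did not pass, but passed under median scaling at -0.41 (adjusted p = 0.00913, limma).

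The promoters of ATF3 and AARS1 are shown because each holds a match to TGATGNAA, the composite element that ATF4 and CEBP factors can bind. The windows run from 250 bases before to 50 bases after the RefSeq start site (GRCh38.p14), are read 5' to 3' on the gene's strand, and have the match in capitals, at base -191 from the start site in ATF3 (chr1:212565157-212565456, plus strand) and at base -187, on the opposite strand, in AARS1 (chr16:70289457-70289756, minus strand).
ATF3: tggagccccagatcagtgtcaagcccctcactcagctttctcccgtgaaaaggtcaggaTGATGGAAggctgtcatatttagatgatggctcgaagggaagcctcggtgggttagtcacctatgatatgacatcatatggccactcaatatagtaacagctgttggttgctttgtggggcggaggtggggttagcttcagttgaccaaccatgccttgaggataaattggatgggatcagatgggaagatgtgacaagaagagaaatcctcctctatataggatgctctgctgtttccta
AARS1: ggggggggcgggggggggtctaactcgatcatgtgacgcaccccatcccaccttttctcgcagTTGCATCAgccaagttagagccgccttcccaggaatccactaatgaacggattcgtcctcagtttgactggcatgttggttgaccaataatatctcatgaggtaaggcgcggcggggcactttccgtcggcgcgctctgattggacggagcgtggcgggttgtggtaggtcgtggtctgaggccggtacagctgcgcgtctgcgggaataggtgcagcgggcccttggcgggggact
Searched on both strands, the motif was in 4 of 22 matched promoters of the ATF4 and CHOP list (18.2%: ATF3, ASNS, SLC7A1 and SLC3A2), in 5 of 15 synthetase promoters (33.3%), in 1.71% of the 8169 tested genes with a window and in 3.67% of all 27305 windows. Of the 5 synthetases with a match AARS1 and NARS1 rose, TARS1 fell, and IARS1 and MARS1 did not pass. SARS1, EPRS1 and QARS1 rose without a match. The promoters of DDIT3 and TRIB3 held no such letters.

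Of 25 measured interferon-stimulated genes, out of 40 listed, 13 rose, none fell and 12 did not pass, 3 of which lay below 0. The median was 0.39, or 0.36 with undetected members at their bound, and under median scaling it was 0.21, with 9 higher and 1 lower. ISG15, a ubiquitin-like antiviral modifier, read 7.76, 7.82 and 7.87 at 3 days and 6.11, 6.03 and 6.04 at 1 day, where it was undetected, and was at least 2.91-fold higher (adjusted p = 4.04e-06, limma). IFI6, an interferon-induced mitochondrial protein, had 9.52, 9.19 and 9.37 at 3 days and 8.35, 8.36 and 8.15 at 1 day (2.11-fold higher). The transcription factor IRF1 was 1.96-fold higher, with an adjusted p of 0.234 in the fit of all 12 arrays (limma). STAT2, IFIT1 and the RNA sensors RIGI and IFIH1 did not meet the detection filter and were not tested, and IRF7 and OAS1 did not pass (0.20 and 0.27).

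Genes of MHC class I antigen presentation had 2 rises among 12 measured (16.7%, near the 17.6% of all genes), and none fell (median 0.10). Under median scaling 2 were higher and 3 lower (median 0.03). TAP1, a peptide transporter subunit, was undetected at 1 day and at least 1.72-fold higher, with 7.08, 7.22 and 6.87 at 3 days and 5.34, 5.46 and 5.42 at 1 day. B2M, the invariant light chain, read 11.38, 11.38 and 11.08 at 3 days and 10.27, 10.38 and 10.46 at 1 day (1.88-fold higher), and a further probe rose by 0.49. The 4 measured HLA genes did not pass, and HLA probes may cross-hybridise.

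The promoters of ISG15 (chr1:1013247-1013546, plus strand) and TAP1 (chr6:32853655-32853954, minus strand) are shown for their matches to GAAANNGAA, the core of an interferon response element, in capitals where the matches run into each other. There are 3 overlapping matches in ISG15 and 2, on the opposite strand, in TAP1.
ISG15: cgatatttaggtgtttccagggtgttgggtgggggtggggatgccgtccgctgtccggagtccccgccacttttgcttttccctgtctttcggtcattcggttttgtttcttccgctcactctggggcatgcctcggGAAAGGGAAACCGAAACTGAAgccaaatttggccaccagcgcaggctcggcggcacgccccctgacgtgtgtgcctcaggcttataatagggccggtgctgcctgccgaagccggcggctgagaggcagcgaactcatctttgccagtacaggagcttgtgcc
TAP1: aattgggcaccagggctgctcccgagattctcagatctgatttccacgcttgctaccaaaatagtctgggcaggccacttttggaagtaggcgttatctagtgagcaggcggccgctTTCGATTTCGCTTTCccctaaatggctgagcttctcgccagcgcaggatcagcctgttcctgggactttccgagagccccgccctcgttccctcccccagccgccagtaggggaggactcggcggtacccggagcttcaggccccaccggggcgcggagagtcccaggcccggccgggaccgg
The motif was in 11 of 22 matched promoters of the interferon list and 5 of 11 of the antigen presentation list (45.5%), against 6.22% of tested genes and 8.29% of all windows. Genes with a match that did not pass were IFIT3, OAS3, DDX60 and EIF2AK2 of the interferon list. In the antigen presentation list they were HLA-F, TAPBP and PSMB10.

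**Figure D3:**
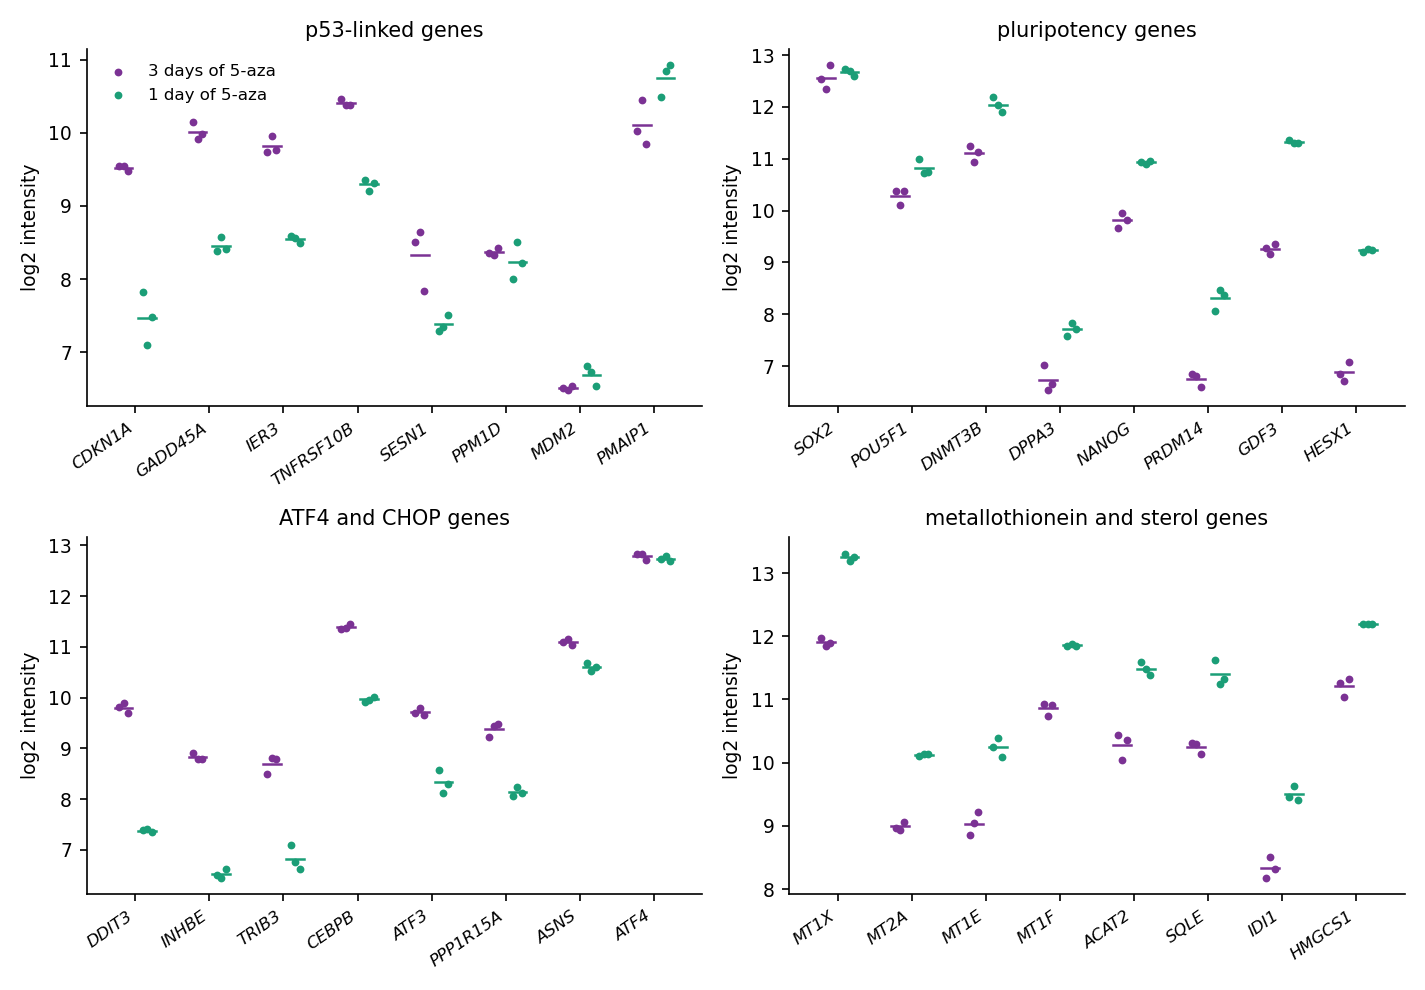
Normalized log2 intensity on each array at 3 days and at 1 day of 5-aza for genes of the p53, pluripotency, ATF4 and CHOP, metallothionein and sterol groups, with short lines at the means. The groups of arrays are separate in CDKN1A and ATF3, with higher values at 3 days, and in NANOG and MT1X, with lower values at 3 days.

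MYC was the single called member of its own network, in which the other 7 measured genes did not pass. Ribosome biogenesis factors, many of which are known MYC targets, fell in 15 of 36 measured cases and rose in none, with a median of -0.30 (-0.58 under median scaling, where 29 fell). GRWD1, a ribosome assembly chaperone, read 8.26, 7.97 and 8.11 at 3 days and 9.20, 9.31 and 9.22 at 1 day (2.19-fold lower), and RRP12 and NOLC1, which serve rRNA maturation and nucleolar assembly, differed by -0.80 and -0.78. Of 39 measured ribosomal proteins 36 did not pass and 3 fell (6 under median scaling), a share called of 7.69% against 32.5% of all genes. The 3 that fell were RPL29, RPS7 and RPS23, of which RPS7 and RPS23 did not pass with all 12 arrays (adjusted p 0.189 and 0.0641, limma), and ribosomal protein probes may also read processed pseudogenes. E-boxes with the letters CACGTG were in 9 of 29 matched promoters of the biogenesis list (31.0%), in 10.6% of tested genes and in 7.43% of all windows. Of these 9, PNO1 and IPO4 fell, and FBL, RRP9, PES1, NOP2, BYSL, UTP4 and NAT10 did not pass. GRWD1, NOP16 and DDX21 were among those that fell without a match.

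Of 10 measured polyamine genes 3 rose, 3 fell and 4 did not pass, against 2 higher and 5 lower under median scaling. ODC1, the rate-limiting synthetic enzyme and a MYC target, read 10.59, 10.45 and 10.64 at 3 days and 11.98, 12.04 and 11.86 at 1 day (2.65-fold lower, adjusted p = 2.18e-05, limma), and the other falls were in the synthetic enzymes SRM and AMD1 (-0.46 and -0.30). The SRM call was lost without replicate 2 or 3 at 3 days or replicate 1 at 1 day, and the AMD1 call without any single array (adjusted p up to 0.06 and 0.148), and both with all 12 arrays (0.322 and 0.426). The catabolic genes SAT1, PAOX and SMOX rose by 0.80, 0.88 and 0.53, of which SMOX did not pass under median scaling or with all 12 arrays (adjusted p 0.0545 and 0.225, limma).

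Cholesterol synthesis genes fell in 11 of 17 measured cases and rose in none, with a median of -0.62 (-0.95 under median scaling). ACAT2, which makes acetoacetyl-CoA, read 10.44, 10.04 and 10.36 at 3 days and 11.60, 11.49 and 11.38 at 1 day (2.32-fold lower). SQLE, squalene epoxidase, had 10.31, 10.29 and 10.13 at 3 days and 11.62, 11.25 and 11.33 at 1 day (2.23-fold lower), and HMGCS1, HMG-CoA synthase, had 11.26, 11.04 and 11.33 at 3 days and 12.19 on each array at 1 day (1.97-fold lower). IDI1, the isomerase of isoprenoid units, was 2.24-fold lower. In fatty acid synthesis none of 11 genes rose and 3 fell (8 under median scaling), among them the regulator SREBF1 (1.95-fold lower). The share called in fatty acid synthesis was 27.3%, against 32.5% of all genes.

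Metallothioneins, the small zinc and copper buffers, and their zinc-response partners had the lowest median of any list, -1.17 (-1.14 with undetected members at their bound, -1.45 under median scaling). Of 8 measured genes 7 fell, and the regulator MTF1 did not pass. MT1X read 11.98, 11.84 and 11.90 at 3 days and 13.31, 13.20 and 13.26 at 1 day (2.55-fold lower, adjusted p = 1.92e-05, limma), MT2A was 2.2-fold lower and MT1M at least 1.87-fold lower. These genes are near-identical copies whose probes may cross-hybridise. The zinc exporter SLC30A1, which is no metallothionein, read 7.01, 7.23 and 6.97 at 3 days and 8.14, 8.29 and 8.19 at 1 day (2.19-fold lower). The promoter of MT1X (chr16:56682220-56682519, plus strand) is shown with its 4 matches to TGCNCNC, the core of the metal response element, in capitals.
MT1X: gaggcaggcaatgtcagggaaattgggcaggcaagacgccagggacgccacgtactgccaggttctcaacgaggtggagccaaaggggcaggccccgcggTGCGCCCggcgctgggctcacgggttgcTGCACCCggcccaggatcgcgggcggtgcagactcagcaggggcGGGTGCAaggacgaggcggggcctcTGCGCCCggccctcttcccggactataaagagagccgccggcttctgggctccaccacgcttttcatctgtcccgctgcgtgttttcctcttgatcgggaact
That core was in 5 of 5 matched promoters of the list, but also in 63.4% of tested genes and 55.2% of all windows.

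Among targets of NRF2, the antioxidant factor, and redox genes, 3 of 16 rose and 3 fell, against 3 and 9 under median scaling, where the list's median was -0.40. The share called was 37.5%, against 32.5% of all genes. TXNIP, the thioredoxin inhibitor, read 11.46, 11.92 and 11.90 at 3 days and 10.23, 10.27 and 10.25 at 1 day (2.85-fold higher), and the autophagy receptor SQSTM1 was 2.26-fold higher.

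**Figure D4:**
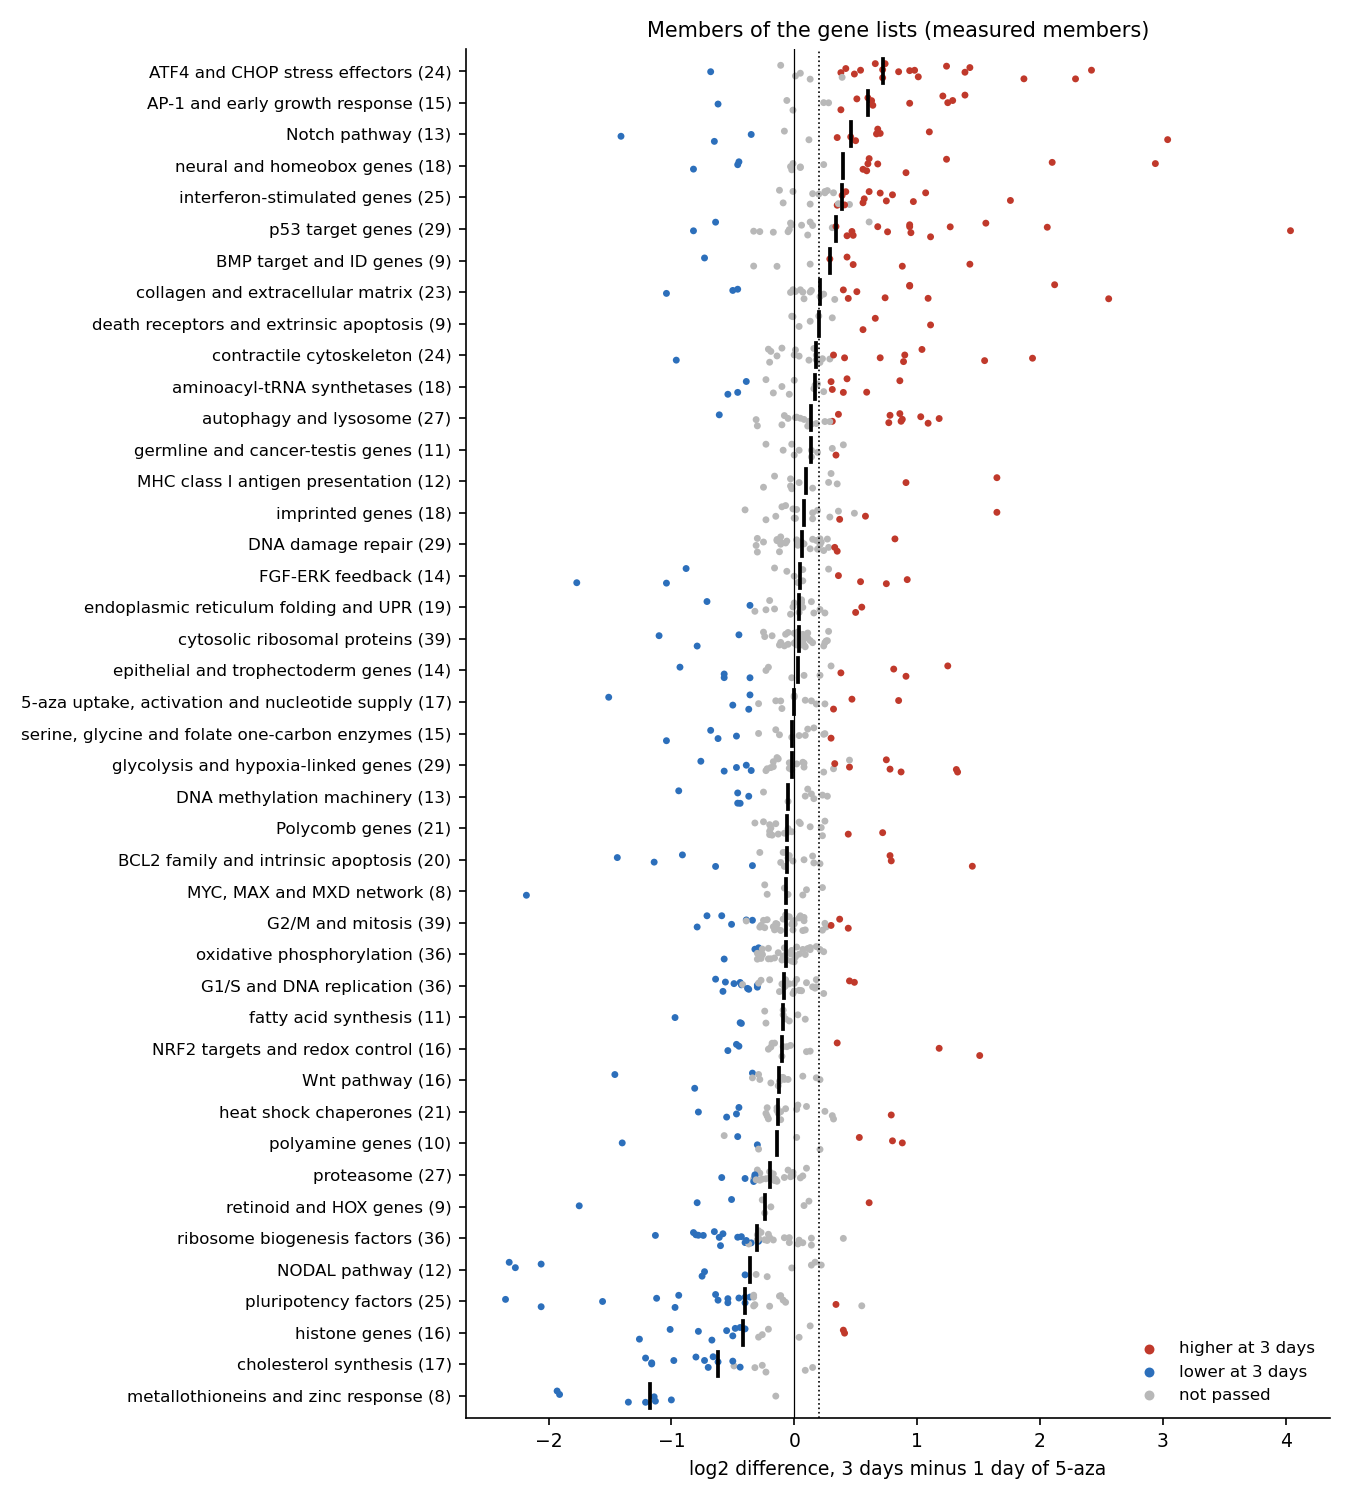
Difference in normalized log2 intensity, 3 days minus 1 day of 5-aza, for each measured member of the gene lists with at least 8 measured genes, with called members coloured by direction, the list's median as a black bar and a dotted line at 0.20, the shift between quantile and median scaling. The metallothionein list has the lowest median, -1.17, and the ATF4 and CHOP list has 18 of 24 members called higher.

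AP-1 and early growth response genes rose in 10 of 15 measured cases, and the single one that fell was KLF4 (median 0.60, or 0.36 under median scaling). The KLF4 call was lost with all 12 arrays (adjusted p = 0.0688, limma). JUN read 10.40, 10.06 and 10.37 at 3 days and 8.99, 9.01 and 9.07 at 1 day (2.38-fold higher), and EGR1 read 10.44, 10.23 and 10.38 at 3 days and 8.92, 9.15 and 9.11 at 1 day (2.45-fold higher). FOSL1, an AP-1 subunit undetected at 1 day, was at least 2.1-fold higher.

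Genes of apoptosis changed in both directions. HRK, a BH3-only activator, read 7.76, 8.06 and 7.71 at 3 days and 6.06, 6.27 and 6.83 at 1 day, where 2 of 3 arrays detected it (2.74-fold higher), and APAF1, the scaffold of the apoptosome, was 1.73-fold higher. CYCS, cytochrome c, read 7.61, 7.48 and 7.55 at 3 days and 9.12, 8.98 and 8.86 at 1 day (2.72-fold lower), and the BH3-only protein BID was 2.2-fold lower. In all 3 of 20 measured genes of the BCL2 family and intrinsic pathway rose and 5 fell (3 and 8 under median scaling), while BAX, a pore-forming p53 target, did not pass (0.15). Among death receptor genes 3 of 9 rose and none fell (median 0.20, or -0.05 under median scaling). Their share called was 33.3%, near the 32.5% of all genes.

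Histone genes fell in 9 of 16 measured cases and rose in 2, with a median of -0.42 (-0.40 with undetected members at their bound, -0.63 under median scaling). H2BC12, a replication-dependent H2B gene, read 8.13, 8.53 and 8.26 at 3 days and 9.41, 9.57 and 9.71 at 1 day (2.39-fold lower), and histone copies may cross-hybridise. How many cell cycle genes passed depended on the scaling: 24 of 36 replication genes and 30 of 39 mitotic genes did not pass, whereas under median scaling 24 of either list were lower and none higher. In the main fit the shares called were 33.3% and 23.1%, against 32.5% of all genes. Those that fell numbered 10 and 6, led by the origin recognition gene ORC1 (-0.64) and the spindle checkpoint kinase BUB1B (-0.79), and 2 and 3 rose, among them the D cyclins CCND1 and CCND3 (0.49 and 0.45), neither of which passed under median scaling (adjusted p 0.345 and 0.107, limma). In the fit of all 12 arrays ORC1 and both cyclins did not pass (adjusted p 0.0891, 0.261 and 0.428, limma).

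Genes of matrix, cytoskeleton and S100 proteins rose in part. COL1A1, a fibrillar collagen chain, read 8.51, 8.27 and 8.41 at 3 days and 6.44, 6.23 and 6.14 at 1 day, where 1 of 3 arrays detected it (4.35-fold higher, adjusted p = 4.58e-06, limma), and COL6A1, a microfibrillar collagen, was 2.12-fold higher. In the matrix list 9 of 23 rose and 3 fell, the largest fall being CCN2, a target of YAP (-1.04). In the contractile list 8 of 24 rose and 1 fell (median 0.18), whereas 6 were higher and 8 lower under median scaling (median -0.15). Members called in the main fit made up 37.5%, against 32.5% of all genes. LGALS1, galectin-1, read 8.40, 8.52 and 8.57 at 3 days and 6.86, 6.52 and 6.29 at 1 day, with 2 of 3 arrays detected (3.84-fold higher), ACTA2, smooth muscle actin, was at least 1.25-fold higher, and TAGLN, an actin-binding protein, fell by 0.96. S100 genes rose in 5 of 6 measured cases (median 0.86, or 0.54 under median scaling). Of 8 fibroblast markers 2 were detected on all arrays at 3 days and 3 at 1 day, with a summed intensity of 594 to 640 at 3 days and 624 to 684 at 1 day, and LUM was detected on no array.

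Epithelial genes had 4 rises and 4 falls among 14, with CDH1, E-cadherin, 2.38-fold higher at 8.88, 9.09 and 9.06 at 3 days and 7.84, 7.72 and 7.72 at 1 day, while CDH2, N-cadherin, fell by 0.57, a call lost with all 12 arrays (adjusted p = 0.129, limma). Polycomb genes silence developmental loci by another route than DNA methylation. They did not pass in 19 of 21 cases, the methyltransferase EZH2 among them (-0.05). The 9.52% called lay below the 32.5% of all genes. Under median scaling 11 were lower and 1 higher, and EZH2 passed at -0.36 (adjusted p = 0.0293, limma). CBX7 and PCGF1 rose by 0.72 and 0.44, and PCGF1 did not pass under median scaling or with all 12 arrays (adjusted p 0.0888 and 0.252, limma).

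Promoters of the genes that rose most were less often rich in CpG sites than those of the genes that fell most. CpG density was taken as the observed number of CG pairs over that expected from the base content of the 300-base window, and a value of at least 0.6 is typical of CpG islands. Windows reached it in 62.9% of 194 genes higher by at least 2-fold and in 58.2% of 98 genes that appeared from background. The share was 84.0% of 75 genes lower by at least 2-fold, 73.9% of 92 genes that disappeared, and 82.9% of all tested genes. Over all called genes it was 77.5% of 1428 that rose and 86.1% of 1235 that fell. These shares are descriptions without a test, and no methylation was measured here.

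**Figure D5:**
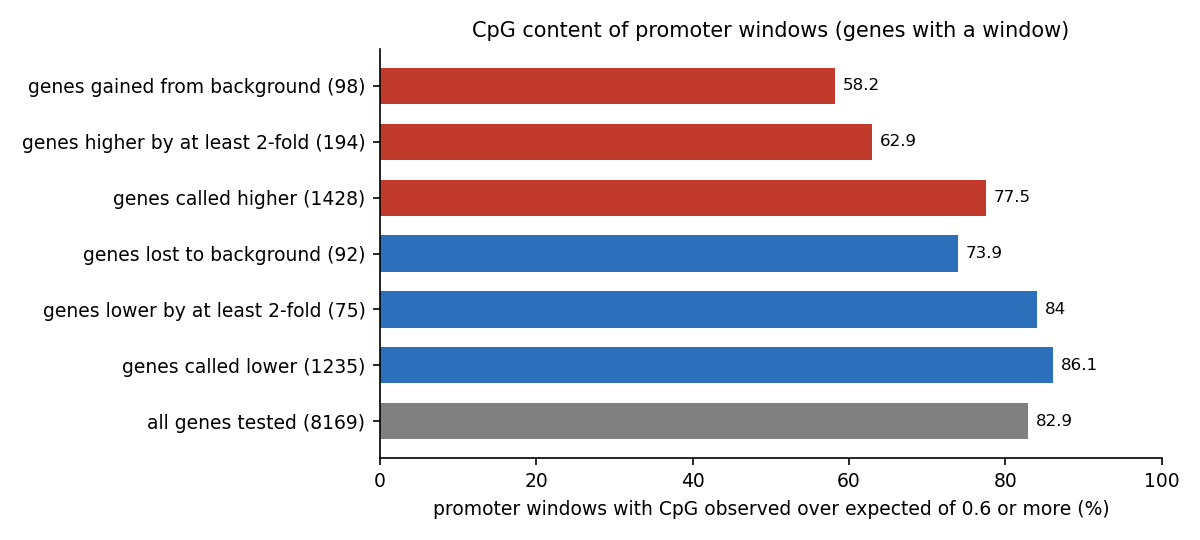
Share of promoter windows with a CpG observed over expected ratio of at least 0.6, in percent, for sets of genes by their change at 3 days against 1 day of 5-aza and for all tested genes. Genes that appeared from background are at 58.2% and genes lower by at least 2-fold at 84.0%. The sets were not matched for expression level.

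Levels in untreated cells were read from the same probes with all 12 arrays normalized together, as a description. CDKN1A averaged 9.66 at 3 days, 7.63 at 1 day and 7.01 in untreated cells, and DDIT3 9.94, 7.55 and 7.51. For GDF15, detected on none of the 3 untreated arrays, the means were 9.60, 5.45 and 5.53. MYC averaged 8.0 at 3 days, 10.15 at 1 day and 10.02 in untreated cells, NANOG 9.95, 11.05 and 11.26, GDF3 9.40, 11.44 and 11.44, and MT1X 12.02, 13.36 and 13.23. In LEFTY2 the 1 day mean of 9.49 lay above both others, 7.26 at 3 days and 8.78 in untreated cells.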

How the data were processed

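RNA was extracted with Trizol, checked on a Bioanalyser, made into biotinylated cRNA with the Ambion MessageAmp kit and scanned on a BeadArray Reader. The authors summarised the beads in GenomeStudio (version not given in the sources used here) and deposited a non-normalized table of 47231 probes with a mean bead intensity, not background-subtracted (lowest value 42.3), and a detection p-value per array, and an intensity table of 47226 probes after quantile normalization. Starting from the non-normalized table, the 6 arrays were background-corrected (normal-exponential convolution, offset 16, control beads reconstructed from the detection p-values), quantile-normalized, log2-transformed and fitted with lmFit and eBayes in limma 3.58.1 under R 4.3.3 (4 residual and 5.41 prior degrees of freedom). The script was tested on simulated data. Probes were named from the platform annotation (30112 with 1 symbol, 8 with several), and promoters come from RefSeq. Named genes were the 10 largest rises and falls, up to 4 called members of each list, genes the study named, and the 5 largest bounds in each direction, with other list members given where a list is described. The members and lists were chosen with earlier results of these data known. Some genes stand in several lists, among them SMAD7, GDF3, DNMT3B, KLF4 and ATF3, so the counts of different lists are not independent. A few list members are not reported here. Precision is limited by the small number of arrays. Alternatives changed the normalization, background correction, filter, samples, replicate block, array weights, probe summary and thresholds.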

Additional observations from a re-analysis of the deposited data

How the results depend on the processing

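Counts of called genes moved most with the samples in the fit: all 12 arrays together gave 950 genes, 630 higher and 320 lower, all of them among the 3255. The cause was not tested. Stricter thresholds gave 1859 genes (1117 higher, 742 lower) at an adjusted p under 0.01 and 1412 (855 higher, 557 lower) with a fold of at least 1.5. Median scaling gave 1002 higher and 3662 lower. Unnamed probes numbered 1174 under median scaling and 184 with all 12 arrays, both chosen after seeing the data, in place of 718. Leaving out 1 array at a time gave 2388 to 2861 changed genes, 1366 to 1556 higher and 1022 to 1305 lower. Cyclic loess, the deposited normalized values, an offset of 50, the other filters, array weights and the mean of probes gave 2705 to 3574. Same-numbered arrays of the groups showed little shared deviation (r 0.05, 0.001 and 0.021), and other pairs gave -0.049 to 0.031. With 3 arrays per group and values already quantile-normalized, these correlations cannot exclude a pairing. With the replicate block 3020 genes were called, 1651 higher and 1369 lower. Calls of named genes lost in the fit of all 12 arrays numbered 25, under median scaling 7 and with the block 2, out of 143 named genes. Median scaling gave a call in the same direction to 8 named genes without one: DPPA4, ENO1, EZH2, GAPDH, HSPA5, LIN28A, PHC1 and SOX2. It also gave a call to ATF4, as lower (adjusted p = 0.0309, limma). Among genes that did not pass in the main fit, median scaling turned round PPM1D (-0.08), DNMT1 (-0.18), DCK (-0.09), BAX (-0.06) and ATF4 (-0.31). Cyclic loess turned round ATF4 (-0.01), and the mean of probes ATF4 (-0.22) and SOX2 (0.00). Without single arrays DNMT3A ran from -0.17 to 0.01, EZH2 from -0.15 to 0.02 and SOX15 from -0.18 to 0.09. Detection limits dim genes: with a detection p under 0.01, 140 genes appeared and 121 disappeared in place of 134 and 132.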

Other observations

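Autophagy and lysosome genes rose in 10 of 27 measured cases and fell in 1, with a median of 0.14, whereas 8 were higher and 7 lower under median scaling (median -0.06). NPC2, a lysosomal cholesterol carrier, read 12.92, 12.86 and 12.91 at 3 days and 11.86, 11.80 and 11.94 at 1 day (2.04-fold higher, adjusted p = 7.74e-05, limma), and the lysosomal protease CTSB and the ATG8 family member GABARAPL1 were 1.82-fold and 1.85-fold higher, the CTSB call being lost with all 12 arrays (adjusted p = 0.0986, limma). MAP1LC3A rose by 1.09 on its brightest probe, and its other probe differed by 0.04 and did not pass. Proteasome genes fell in 5 of 27 cases and rose in none (median -0.20, or -0.50 under median scaling, where 23 fell). Their share called in the main fit was 18.5%, against 32.5% of all genes.

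Among glycolysis and hypoxia-linked genes 7 of 29 rose and 5 fell, against 5 and 15 under median scaling. NDRG1, a stress and hypoxia gene, was 2.52-fold higher, and the neuronal enolase ENO2 read 11.11, 11.15 and 11.07 at 3 days and 10.01, 9.80 and 9.56 at 1 day (2.49-fold higher), whereas the hexokinase HK2 was 1.69-fold lower and GAPDH and ENO1 did not pass, but did under median scaling (-0.37 and -0.36, adjusted p 0.0172 and 0.0251, limma). Oxidative phosphorylation genes fell in 3 of 36 cases and in 22 under median scaling (median -0.07 and -0.35), and none rose in either. With 8.33% called in the main fit, this list lay below the 32.5% of all genes. Of 21 measured chaperones of the heat shock response 1 rose, the cochaperone BAG3 (1.73-fold), and 4 fell, among them the chaperonin subunit CCT5 (1.71-fold lower). The share of chaperones called was 23.8%, against 32.5% of all genes. Under median scaling 15 were lower and 1 higher, and the BAG3 call was lost with all 12 arrays (adjusted p = 0.0556, limma). Of 29 DNA repair genes 3 rose and none fell, whereas 1 was higher and 7 lower under median scaling. In the main fit 10.3% of them were called, against 32.5% of all genes.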
